A study of Mus musculus with 24 samples.

Results

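The genes described are 52 genes of the cell cycle and of DNA replication, chosen by symbol out of 55421 genes counted by RNA sequencing in bone marrow-derived macrophages (BMDMs) of the mouse. They comprise 8 cyclins and cyclin-dependent kinases (CDKs) of G1 and S phase entry, 3 CDK inhibitors, 5 transcription factors of the cycle, 15 genes of S phase and DNA replication and 21 genes of G2 and mitosis. Each symbol belonged to 1 gene of the table, and all 52 passed the filter on low counts over the 24 libraries. Within the libraries with LPS alone 47 would have passed it.

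The study asked how the aryl hydrocarbon receptor (AhR), a ligand-activated transcription factor, shapes gene expression in alveolar-like macrophages. Bone marrow of wildtype C57/B6/J mice and of AhR-deficient mice (B6.129-Ahr tm1Bra/J, which lack AhR in all cells) was cultured from the start with 10 ng/ml GM-CSF and 2 ng/ml TGF-β1. On day 3 part of the medium was exchanged for medium with higher concentrations of both. On day 6 LPS, a component of the bacterial outer membrane, was added at 97 EU/ml for 24 h or left out. The methods give mice of both sexes between 7 and 14 weeks of age, and the treatment protocol lists 5 µM of the Ca2+ ionophore A23187 for a final 10 min without saying whether unstimulated cultures received it. The 4 groups (wildtype unstimulated, AhR-deficient unstimulated, wildtype LPS and AhR-deficient LPS) held 6 libraries each, from 6 animals per group in 1 experiment, with no label on whether the same animal gave cultures with and without LPS. P-values therefore measure the spread between these libraries.

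Macrophage precursors divide in response to growth factors such as GM-CSF. D-type cyclins with CDK4 or CDK6 and E-type cyclins with CDK2 carry the cell through G1, where E2F transcription factors turn on the genes that load the replicative helicase and make nucleotides. Later in the cycle B-MYB and FOXM1, with the MuvB complex, turn on the cyclins, kinases and motor proteins of G2 and mitosis. LPS is known to stop the proliferation of macrophages grown in such factors.

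Library totals were between 45106052 and 76992663 counts. Ahrr, a direct AhR target named here with its values known, was at 42.3 ± 19.4 CPM (read counts normalised to library size; SD, n = 6) in unstimulated wildtype and at 0.515 ± 0.308 CPM in unstimulated AhR-deficient BMDMs. Ahr itself was counted over the whole gene and does not show the deleted part: it was at 28.3 ± 12.2 against 7.41 ± 2.39 CPM without stimulation and at 16.8 ± 7.63 against 43.1 ± 16.1 CPM after LPS (wildtype against AhR-deficient). The summed level of 8 macrophage markers was between 14000 and 33700 CPM in every library, and that of 8 alveolar macrophage markers between 3760 and 11200 CPM. Lyz2, with group means of 13700 to 26500 CPM, made up most of the first sum. Chil3 (2530 to 5560 CPM) and Car4 (873 to 3670 CPM) made up most of the second. Single markers moved within these sums, such as Cd14, at means of 67.4 CPM without and 2690 CPM with LPS in wildtype. The 24 library numbers form 3 runs of 8 with 2 libraries of each group in every run. Libraries also differed in how counts depended on gene length (the slope of a library's log2 counts, relative to the mean of all libraries, on log2 exon length), with slopes between -0.36 and 0.25. Library 34 of unstimulated and library 38 of LPS-stimulated wildtype BMDMs had no Y-linked counts above 1 CPM, and no AhR-deficient library lacked them. Library 33 of unstimulated wildtype and library 19 of unstimulated AhR-deficient BMDMs had the 2 lowest slopes.

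The promoters are shown first, because the S phase and mitosis lists, compared throughout, carry different elements. RefSeq promoter windows (build GRCm38.p6, 250 bases before to 50 after the start site) were at hand for 41 of the 52 genes, 47 windows in all. They were searched on both strands for the E2F site (TTTCGCGC, TTTGGCGC, TTTCCCGC or TTTGCCGC, which bind E2F factors), the cell cycle genes homology region or CHR (TTTGAA or TTCGAA, which binds MuvB) and the CCAAT box (CCAAT, which binds NF-Y). Matches of E2F sites may overlap each other. Mcm5 and Mcm6, subunits of the replicative helicase, stand for S phase genes with E2F sites. Cdk1, the kinase that drives mitosis, holds an E2F site as well as CHR elements. Ccnb2 (cyclin B2), Cdc20 (the activator of the anaphase-promoting complex) and Plk1 (polo-like kinase 1) hold CHR elements and CCAAT boxes without an E2F site. Matches on either strand are in capitals, and each sequence is written along the strand of its gene. The windows are Mcm5 at chr8:75109259-75109558 (+ strand), Mcm6 at chr1:128359656-128359955 (- strand), Cdk1 at chr10:69352863-69353162 (- strand), Ccnb2 at chr9:70421505-70421804 (- strand), Cdc20 at chr4:118437294-118437593 (- strand) and Plk1 at chr7:122159185-122159484 (+ strand).
Mcm5: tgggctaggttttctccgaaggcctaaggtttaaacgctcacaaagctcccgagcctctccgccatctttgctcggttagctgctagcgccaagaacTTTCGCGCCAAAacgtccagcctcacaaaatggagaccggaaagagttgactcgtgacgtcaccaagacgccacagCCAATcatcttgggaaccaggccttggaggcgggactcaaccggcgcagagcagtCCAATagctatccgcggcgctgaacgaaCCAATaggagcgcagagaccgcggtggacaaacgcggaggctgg
Mcm6: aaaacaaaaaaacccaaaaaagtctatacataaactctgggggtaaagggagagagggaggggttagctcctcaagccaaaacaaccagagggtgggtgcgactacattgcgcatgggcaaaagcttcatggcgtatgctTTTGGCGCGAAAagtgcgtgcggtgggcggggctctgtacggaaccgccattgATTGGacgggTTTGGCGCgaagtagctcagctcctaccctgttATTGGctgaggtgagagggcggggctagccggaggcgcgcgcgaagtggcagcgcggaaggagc
Cdk1: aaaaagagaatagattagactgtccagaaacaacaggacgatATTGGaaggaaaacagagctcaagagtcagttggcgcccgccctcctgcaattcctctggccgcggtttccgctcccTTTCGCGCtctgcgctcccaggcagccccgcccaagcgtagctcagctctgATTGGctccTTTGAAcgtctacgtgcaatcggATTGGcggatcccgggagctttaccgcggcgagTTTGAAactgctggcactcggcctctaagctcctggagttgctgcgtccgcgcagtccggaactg
Ccnb2: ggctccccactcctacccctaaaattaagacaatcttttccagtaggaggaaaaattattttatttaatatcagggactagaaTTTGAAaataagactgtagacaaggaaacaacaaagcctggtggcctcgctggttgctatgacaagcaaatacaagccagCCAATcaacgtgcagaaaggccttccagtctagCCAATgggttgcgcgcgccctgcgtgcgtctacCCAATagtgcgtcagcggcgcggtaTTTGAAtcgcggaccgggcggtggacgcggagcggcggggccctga
Cdc20: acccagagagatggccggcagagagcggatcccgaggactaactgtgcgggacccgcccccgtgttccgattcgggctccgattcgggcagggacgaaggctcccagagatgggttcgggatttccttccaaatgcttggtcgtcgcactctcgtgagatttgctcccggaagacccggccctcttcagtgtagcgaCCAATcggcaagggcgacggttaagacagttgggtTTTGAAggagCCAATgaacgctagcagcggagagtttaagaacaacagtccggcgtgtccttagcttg
Plk1: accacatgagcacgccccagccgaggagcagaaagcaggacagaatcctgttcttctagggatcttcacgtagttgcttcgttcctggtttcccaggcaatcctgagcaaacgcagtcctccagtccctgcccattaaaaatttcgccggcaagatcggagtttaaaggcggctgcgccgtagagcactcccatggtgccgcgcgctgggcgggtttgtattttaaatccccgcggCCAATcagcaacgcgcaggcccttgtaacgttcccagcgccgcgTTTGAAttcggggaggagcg

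An E2F site was found in 7 of 15 windows of the S phase genes and in 1 of 16 windows of the G2 and mitosis genes, against 2.26% of all 32851 windows. A CHR element was found in 2 of 15 windows of S phase genes and in 13 of 16 windows of G2 and mitosis genes, against 19.2% of all windows. A CCAAT box was in 11 of 15 and in 15 of 16 windows, against 37.4% of all. All 13 windows of mitosis genes with a CHR element also held a CCAAT box, a combination present in 7.52% of all windows. The CHR element began at base -18 in Cdc20 and at base 31 in Plk1, counted from the start site as base 1. A match is a description of the window and not evidence that a factor binds there. Other spellings of these elements were not searched for, so a window without a match may still hold one.

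**Figure D1:**
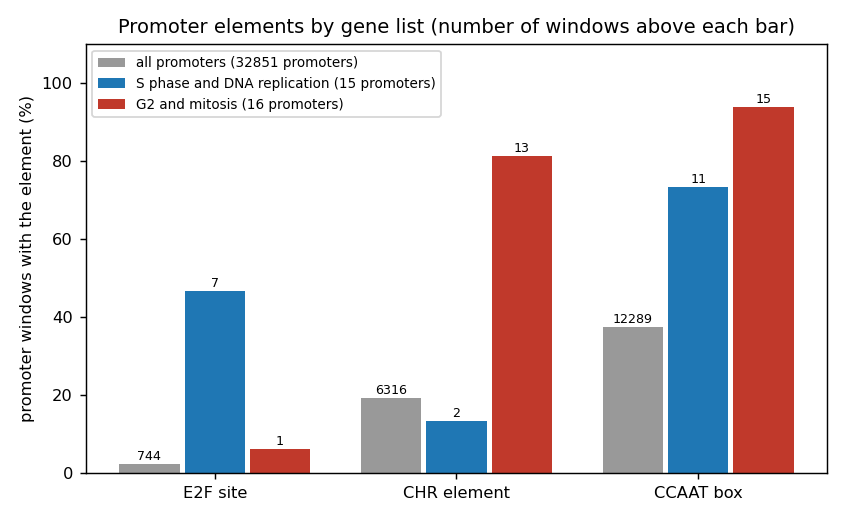
Share of RefSeq promoter windows (%, bars) that hold an E2F site, a CHR element or a CCAAT box, for all 32851 windows, 15 windows of S phase genes and 16 windows of G2 and mitosis genes; the number above each bar counts windows. E2F sites are most frequent in S phase genes (7 of 15) and CHR elements in mitosis genes (13 of 16).

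Without stimulation both genotypes had the transcripts of dividing cells. Per exon length, Pcna (the sliding clamp of DNA polymerase) had a mean of 104 CPM per kilobase of exon (FPKM) over the 12 unstimulated libraries, Ccnb2 71.9 FPKM, Ccna2 (cyclin A2) 50.8 FPKM, Rrm2 (the regulated subunit of ribonucleotide reductase) 50.6 FPKM and Mcm5 49.8 FPKM. At the other end were 3 long mitotic genes. The kinetochore genes Cenpf and Cenpe had means of 0.0524 and 0.0815 FPKM, and Mki67, which codes for the proliferation marker Ki-67, had 0.220 FPKM.

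Some members varied between libraries of the same group far more than others. The SD within groups on the log2 scale, over the 12 unstimulated libraries, was between 0.14 (Cdc20) and 1.84 (Top2a), with a median of 0.42 and values over 1 in 7 genes. Top2a, which codes for the topoisomerase that untangles sister chromatids, was between 6.17 and 209 CPM in these libraries. Its lowest values were those of libraries 33 and 19. These deviations followed the length slope: across the 12 libraries 13 genes had a correlation with the slope of at least 0.9, with Tpx2 and Cdt1 at 0.99 and Foxm1, Kif20a and Top2a at 0.98. Another 9 genes had a correlation of at most -0.9, with Cenpa at -0.99 and Ccnb2 and Cdk4 at -0.98. These are descriptions over libraries that share their preparation, and exon length alone does not sort the members, since Cenpa has 5860 and Cdt1 3140 bases of exon. Cdc20, Cdc25c, Rrm2, Mcm5, Mcm7, Cdkn1b and Cdkn2c followed the slope little, with correlations between -0.29 and -0.01. Of other mitosis genes called between genotypes below, Plk1 was at 0.91, Birc5 at -0.95, Ccna2 at -0.83, Ccnb1 at -0.77 and Cdc25b at 0.47.

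**Figure D2:**
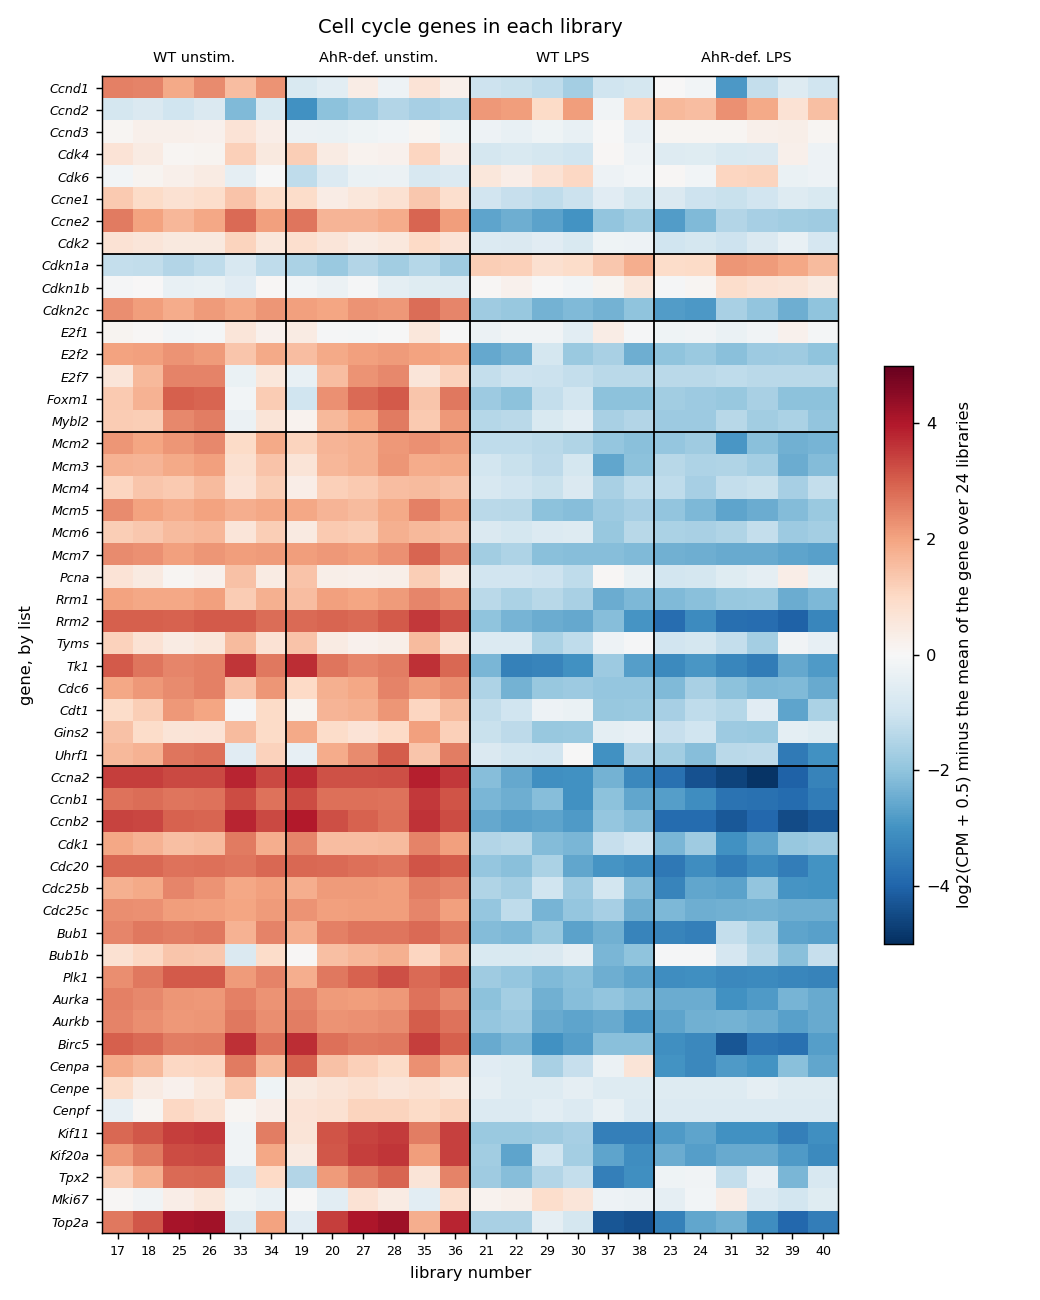
Level of each of the 52 genes (lines, by list from top to bottom: G1 drivers, CDK inhibitors, transcription factors, S phase, G2 and mitosis) in each of the 24 libraries (columns, by group), as log2(CPM + 0.5) minus the mean of the gene. Most S phase and mitosis genes are above their mean in the 12 unstimulated libraries and below it with LPS, while Ccnd2 and Cdkn1a run the other way; libraries 33 and 19 stand out in Top2a, Kif11 and Tpx2.

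LPS lowered the transcripts of the cycle almost throughout in wildtype BMDMs. By edgeR's quasi-likelihood test (adjusted p of at most 0.05 after Benjamini-Hochberg and a fold change of at least 2), 45 of the 52 genes fell, where 11.8% of all 16593 genes tested fell, and 2 rose, where 13.2% of all genes rose. All 15 S phase genes fell, with a median log2 fold change of -3.07, as did 20 of the 21 G2 and mitosis genes, with a median of -4.98. The median over all genes was 0.03. The 6 libraries with LPS did not overlap with the 6 unstimulated ones in 44 of the 52 genes, against 22.4% of all genes. In bulk samples, fewer dividing cells and less RNA per dividing cell cannot be told apart.

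The same comparison in AhR-deficient BMDMs gave 44 genes that fell (15.7% of all genes fell) and 3 that rose (15.1% of all genes rose). All 15 S phase genes fell, with a median log2 fold change of -4.25, and 20 of the 21 mitosis genes fell, with a median of -7.13, or -6.71 with Cenpf at its lower bound. The median over all genes was -0.03. Libraries did not overlap in 44 of the 52 genes, against 28.5% of all genes. All 47 members called in each genotype had the same sign in all 3 runs of library numbers.

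Ccna2, which acts from S phase into mitosis, had the largest fall of its list in wildtype. It was at 182, 196 and 259 CPM (lowest, median and highest of 6 libraries) in unstimulated wildtype and at 169, 197 and 280 CPM in unstimulated AhR-deficient BMDMs. After LPS it was at 1.49, 2.25 and 3.78 CPM in wildtype and at 0.126, 0.535 and 1.34 CPM in AhR-deficient BMDMs. All libraries with LPS lay far below all unstimulated ones, and the 2 LPS groups did not overlap either. The log2 fold change with LPS was -6.38 ± 0.42 (SE, adjusted p = 3.6e-11) in wildtype and -8.41 ± 0.46 (adjusted p = 7.9e-13) in AhR-deficient BMDMs.

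Among the S phase genes Tk1 and Rrm2 fell furthest and Pcna least. Rrm2 went from 120, 136 and 143 CPM to 1.74, 2.75 and 3.78 CPM in wildtype and from 122, 135 and 198 CPM to 0.542, 0.743 and 1.43 CPM in AhR-deficient BMDMs. No library with LPS reached any unstimulated one, and the log2 fold changes were -5.58 ± 0.25 (adjusted p = 4.5e-14) and -7.31 ± 0.27 (adjusted p = 1.9e-15). Tk1, the thymidine kinase of the salvage pathway, had log2 fold changes of -6.12 ± 0.45 and -6.91 ± 0.47. Tyms, which codes for thymidylate synthase of the de novo pathway, had log2 fold changes of -1.59 ± 0.31 and -1.70 ± 0.32. Pcna had -1.31 ± 0.29 in wildtype and -1.17 ± 0.29 in AhR-deficient BMDMs, where its libraries overlapped with the unstimulated ones and the call was lost without library 19 (-0.99).

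The 6 helicase subunits Mcm2 to Mcm7 fell together, with log2 fold changes between -4.25 (Mcm7) and -2.32 (Mcm6) in wildtype and between -5.07 (Mcm7) and -2.67 (Mcm4) in AhR-deficient BMDMs. None of their libraries overlapped between states in either genotype. Of the factors that load the helicase, Cdc6 had log2 fold changes of -5.23 ± 0.43 and -5.71 ± 0.44, and Cdt1 of -2.54 ± 0.48 and -3.27 ± 0.49.

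The transcription factors did not move as 1 group. E2f1, an activator of S phase genes, was at 46.2, 54.8 and 77.8 CPM in unstimulated and at 35.1, 45.7 and 67.1 CPM in LPS-stimulated wildtype BMDMs, with overlapping libraries and a log2 fold change of -0.26 ± 0.16 (adjusted p = 0.24). In AhR-deficient BMDMs it was -0.27 ± 0.16 (adjusted p = 0.20). E2f2, another activator, fell in both genotypes (-4.0 ± 0.27 and -4.07 ± 0.27), as did Foxm1, the activator of mitotic genes (-5.35 ± 1.02 and -6.96 ± 1.12), and Mybl2, which codes for B-MYB (-3.75 ± 0.65 and -5.95 ± 0.74). The repressor E2f7 had 1469 counts over the 6 unstimulated and 20 over the 6 stimulated wildtype libraries, and 1349 against 1 in AhR-deficient BMDMs.

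Among the drivers of G1, the D-type cyclins went in different directions. Ccnd1 (cyclin D1) fell with LPS in wildtype, from 48.0, 81.9 and 93.7 CPM to 4.68, 7.44 and 8.59 CPM, a log2 fold change of -3.43 ± 0.38 (adjusted p = 1.2e-07). Ccnd2 (cyclin D2) rose in both genotypes, in wildtype from 58.5, 152 and 165 CPM to 238, 871 and 1200 CPM and in AhR-deficient BMDMs from 33, 81.5 and 97.1 CPM to 450, 817 and 1330 CPM. Every library with LPS was above every unstimulated library of its genotype. On the log2 scale Ccnd2 rose by 2.56 ± 0.36 (adjusted p = 4.5e-06) in wildtype and by 3.53 ± 0.38 (adjusted p = 4.8e-08) in AhR-deficient BMDMs. Ccnd3 (cyclin D3) stayed under a fold change of 2, at -0.59 ± 0.11 in wildtype and 0.33 ± 0.11 in AhR-deficient BMDMs.

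Both E-type cyclins and 2 of the 3 kinases fell. Ccne2 (cyclin E2) had log2 fold changes of -4.78 ± 0.33 in wildtype and -4.26 ± 0.33 in AhR-deficient BMDMs, and Ccne1 (cyclin E1) of -2.08 ± 0.17 and -1.75 ± 0.17. Their partner Cdk2 was at -1.2 ± 0.15 and -1.49 ± 0.15. Cdk4 was at -1.12 ± 0.25 and -1.06 ± 0.25. For Cdk4, which followed the length slope, leaving out libraries 19 and 33 moved the values to -0.93 and -0.90, short of a fold change of 2. Cdk6 was at 0.39 ± 0.27 in wildtype (adjusted p = 0.29) and rose in AhR-deficient BMDMs by 1.05 ± 0.27 (adjusted p = 0.0030), a call that was lost when libraries were scaled by their totals (0.55), with limma-voom (0.94), with the run of library numbers (0.95) or the length slope (0.99) in the model, and without library 19 (0.95), 31 (0.87) or 32 (0.85).

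The 3 CDK inhibitors also split. Cdkn1a, which codes for p21, was at 188, 219 and 297 CPM in unstimulated and at 893, 1190 and 1850 CPM in LPS-stimulated wildtype BMDMs, and at 144, 165 and 194 against 987, 1770 and 2370 CPM in AhR-deficient BMDMs. The groups did not overlap, and Cdkn1a rose by 2.44 ± 0.22 (adjusted p = 4.9e-09) and 3.35 ± 0.23 (adjusted p = 2.5e-11) on the log2 scale. Cdkn2c, which codes for p18, fell instead, from 27, 31.9 and 37.5 CPM to 0.960, 1.26 and 1.72 CPM in wildtype and from 29.4, 34.2 and 51.7 CPM to 0.525, 1.14 and 1.93 CPM in AhR-deficient BMDMs. Its log2 fold changes were -4.63 ± 0.29 and -5.02 ± 0.29. Cdkn1b, which codes for p27, was at 0.35 ± 0.17 (adjusted p = 0.11) and 0.86 ± 0.17 (adjusted p = 0.00020), under a fold change of 2 in both genotypes.

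**Figure D3:**
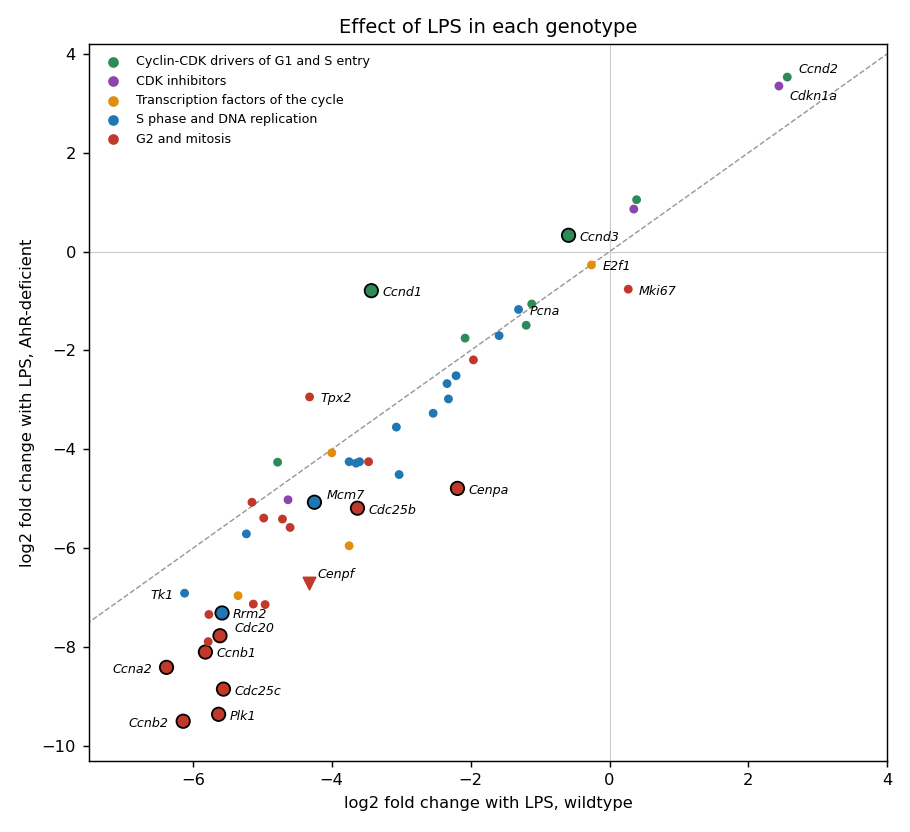
Log2 fold change with LPS in wildtype (horizontal) and AhR-deficient BMDMs (vertical) for 51 of the 52 genes, coloured by list; E2f7, with 1 count in AhR-deficient LPS libraries, is left out, and Cenpf (triangle) is drawn at its bound of -6.71. Outlined points are the 12 genes whose LPS effect differed between genotypes. Points below the dashed line of equal effects fell further in AhR-deficient BMDMs, led by Plk1, Ccnb2, Cdc25c and Cenpa. Cdc25c passed the filter on low counts through its unstimulated libraries alone.

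In the mitotic list, the spindle kinase gene Aurka had log2 fold changes of -4.71 ± 0.19 in wildtype and -5.41 ± 0.20 in AhR-deficient BMDMs. Aurkb and Birc5 (survivin), both of the chromosomal passenger complex, had -4.98 ± 0.22 and -5.39 ± 0.22, and -5.77 ± 0.45 and -7.34 ± 0.49. The checkpoint kinase gene Bub1 was at -5.15 ± 0.45 and -5.07 ± 0.45, and its relative Bub1b at -1.96 ± 0.41 and -2.19 ± 0.41. Cdk1 itself was at -3.47 ± 0.30 and -4.25 ± 0.31. The motor genes Kif11 and Kif20a were at -5.78 ± 0.86 and -5.13 ± 0.71 in wildtype, with wide errors, and followed the length slope.

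Cenpf, which had 423 counts over the 6 unstimulated AhR-deficient libraries, had none in the 6 with LPS. Against the 3 counts that a group without a count allows, this was at least 105-fold lower. Cenpe had 289 counts in the first and 4 in the second of these groups. Mki67 stood apart: it was at 1.37, 1.83 and 3.09 CPM in unstimulated and 1.47, 2.34 and 3.92 CPM in LPS-stimulated wildtype BMDMs, and at 1.17, 2.29 and 3.89 against 0.8, 1.18 and 2.63 CPM in AhR-deficient BMDMs. All groups overlapped, and its log2 fold changes were 0.27 ± 0.35 (adjusted p = 0.59) and -0.76 ± 0.35 (adjusted p = 0.085). Per exon length Mki67, like Cenpe and Cenpf, was far below other mitotic genes even in unstimulated libraries, and whether its counts reflect its transcript level was not tested. No other gene of the table shares exon bases with Mki67 on its strand. Shared bases were found in Mcm7, Foxm1 and Top2a, over between 1.35% and 3.89% of their exon bases, and fragments there are missing from the counts.

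Between unstimulated genotypes 1 of the 52 was lower in AhR-deficient BMDMs, where 3.57% of all genes were lower, and none was higher, where 0.916% of all genes were, so the members were called about as often as genes in general. Without a minimum fold change 2 were called, Ccnd1 and Ccnd3. Libraries of the 2 genotypes did not overlap in 2 of the 52, the same 2 cyclins, against 5.15% of all genes. The median log2 difference was 0.11 over the S phase genes and 0.14 over the mitosis genes.

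The gene that fell was Ccnd1, at 48.0, 81.9 and 93.7 CPM in wildtype and at 9.42, 16.2 and 25.9 CPM in AhR-deficient BMDMs. The groups did not overlap, and the log2 difference was -2.20 ± 0.36 (adjusted p = 2.2e-04), with values between -3.12 and -1.45 within the 3 runs. Ccnd3 was at 148, 164 and 222 against 109, 120 and 146 CPM, a log2 difference of -0.49 ± 0.11 (adjusted p = 0.0043) that stayed under a fold change of 2. Ccnd2, at 58.5, 152 and 165 against 33, 81.5 and 97.1 CPM, overlapped, and its difference of -0.88 ± 0.35 did not pass (adjusted p = 0.18).

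After LPS 10 of the 52 were lower in AhR-deficient BMDMs, where 6.18% of all genes were lower, and none was higher, where 2.17% of all genes were higher. 9 of the 10 belong to G2 and mitosis, whose median log2 difference was -1.52 over 21 genes, and 1 (Rrm2) to S phase, whose median was -0.56 over 15 genes. Cdc25c, among the 9, and Cenpe and Cenpf, in the median, passed the filter on low counts through their unstimulated libraries alone. Libraries did not overlap between genotypes in 7 of the 52, against 7.11% of all genes. These were Rrm2, Ccna2, Ccnb2, Plk1 and Cenpa of the 10, and Mcm7 and Ccnd3, which were not called. Ccnd3 was higher in AhR-deficient BMDMs. All 10 had the same sign in all 3 runs.

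Plk1, which drives entry into and passage through mitosis, differed most of the 10. It was at 0.294, 0.626 and 0.942 CPM in wildtype and at 0, 0.0467 and 0.101 CPM in AhR-deficient BMDMs after LPS, against 21.2, 29.1 and 41.5 and 17.1, 36.4 and 46.1 CPM without stimulation. The groups overlapped without stimulation and were separate after LPS, where the log2 difference was -3.58 ± 0.42 (adjusted p = 2.0e-06), resting on 213 against 15 counts over 6 libraries each. Ccnb2 was at 1.05, 1.33 and 2.42 against 0, 0.148 and 0.263 CPM after LPS, again without overlap, and differed by -3.32 ± 0.40 (adjusted p = 3.4e-06). Over the 6 libraries this was 479 against 46 counts.

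Cenpa, the centromeric histone, was at 12.6, 26.3 and 62.1 CPM in LPS-stimulated wildtype and at 3.84, 4.87 and 9.11 CPM in LPS-stimulated AhR-deficient BMDMs, a separation of all libraries, with a log2 difference of -2.40 ± 0.39 (adjusted p = 0.00013) and values between -2.51 and -1.52 within runs. Rrm2 was at 1.74, 2.75 and 3.78 against 0.542, 0.743 and 1.43 CPM, also without overlap, a difference of -1.62 ± 0.21 (adjusted p = 1.1e-05). The phosphatase Cdc25b, which activates cyclin-CDK complexes, was at 3.28, 4.96 and 8.3 against 1.17, 1.85 and 3.66 CPM, with some overlap, and differed by -1.43 ± 0.25 (adjusted p = 2.7e-04).

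Of the remaining genes that were lower, Cdc20 was at 0.343, 0.950 and 1.94 against 0.101, 0.231 and 0.401 CPM, with a difference of -2.05 ± 0.36 (adjusted p = 2.7e-04). Ccnb1 (cyclin B1) was at 0.425, 0.972 and 1.32 against 0.0258, 0.125 and 0.626 CPM and differed by -2.05 ± 0.43 (adjusted p = 0.0019). The libraries of both genes overlapped. Cdc25c rested on 81 against 7 counts over 6 libraries each, and Birc5 differed by -1.43 ± 0.40 (adjusted p = 0.016). With only the 12 LPS libraries in the fit Birc5 (-1.41) and Ccnb1 (-2.01) lost the call at nearly the same size and Cdc25c was not tested. Ccna2 differed by -1.98 ± 0.36 (adjusted p = 4.9e-04).

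**Figure D4:**
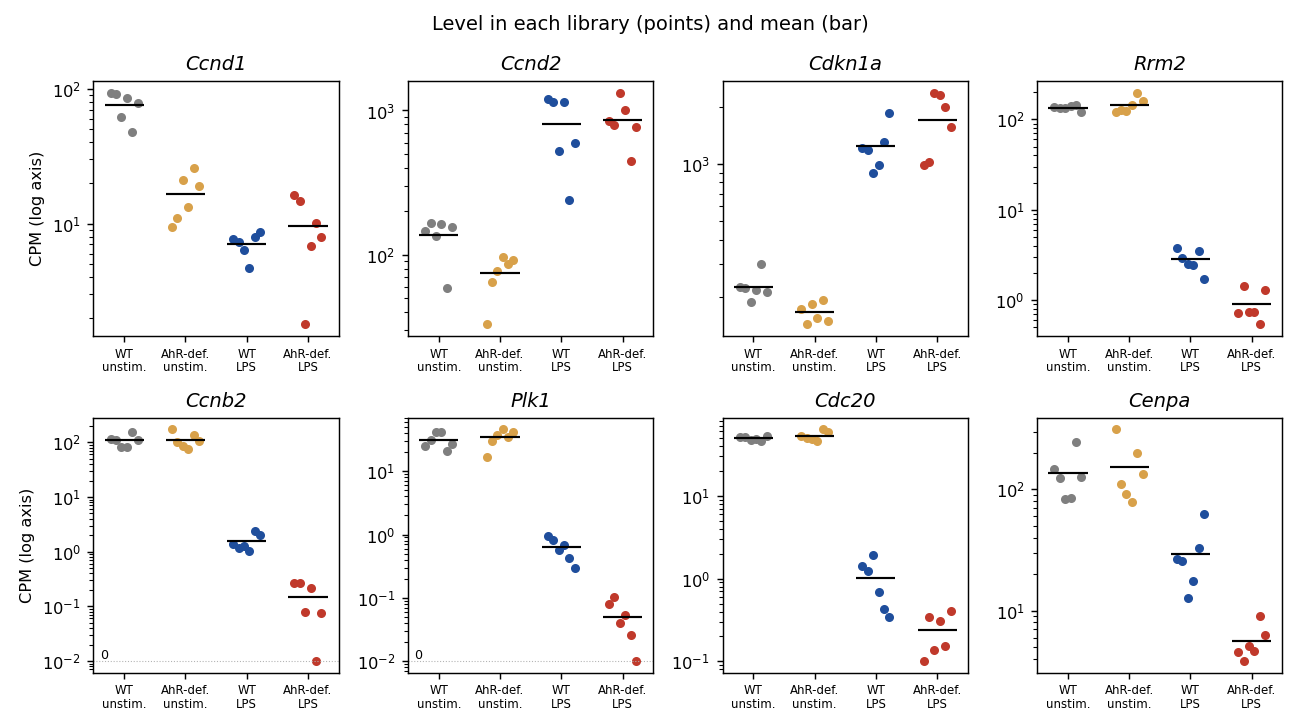
CPM (logarithmic axis) of 8 genes in each library (points; 6 per group) with the group mean (bar); a value of 0 is drawn on the dotted line. Rrm2, Ccnb2, Plk1, Cdc20 and Cenpa are alike in unstimulated groups and lower in AhR-deficient than in wildtype BMDMs after LPS, with overlap in Cdc20; Ccnd1 is lower in AhR-deficient BMDMs without stimulation, and Ccnd2 and Cdkn1a rise with LPS in both genotypes.

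The interaction of genotype and LPS, which compares the LPS effect between genotypes, was called in 12 of the 52 genes at an adjusted p of at most 0.05 with no minimum fold change. The LPS effect was lower in AhR-deficient BMDMs in 10, where 2.34% of all genes were called in that direction, and higher in 2, where 1.95% of all were. The 10 were Plk1 (-3.73 ± 0.52, adjusted p = 1.3e-04), Ccnb2 (-3.36 ± 0.51), Cdc25c (-3.29 ± 0.87, a call lost without library 22, 24 or 40), Cenpa (-2.59 ± 0.53), Ccnb1 (-2.28 ± 0.57), Cdc20 (-2.16 ± 0.47), Ccna2 (-2.03 ± 0.49), Rrm2 (-1.73 ± 0.29), Cdc25b (-1.56 ± 0.34) and the helicase subunit Mcm7 (-0.82 ± 0.21, adjusted p = 0.023, a call lost with limma-voom or without the filter on low counts). Mcm7 went from 100, 109 and 127 CPM to 4.77, 5.17 and 7.97 CPM in wildtype and from 105, 114 and 184 CPM to 3.21, 3.77 and 4.2 CPM in AhR-deficient BMDMs, with no overlap between genotypes after LPS. All 12 had the same sign in all 3 runs, but Cdc25c passed the filter on low counts through its unstimulated libraries alone.

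The 2 genes with a higher interaction were D-type cyclins. Ccnd1, already low in unstimulated AhR-deficient BMDMs, was at 1.79, 9.02 and 16.4 CPM there after LPS, a range that contains all 6 wildtype LPS libraries. Its LPS effect was -0.79 ± 0.35 (adjusted p = 0.069) in AhR-deficient BMDMs, between -2.07 and 0.58 within runs, and the interaction was 2.65 ± 0.49 (adjusted p = 0.0021). Ccnd3 was at 104, 111 and 136 CPM in wildtype and at 146, 148 and 171 CPM in AhR-deficient BMDMs after LPS, the reverse of its order without stimulation, and in each state the genotypes did not overlap. Its interaction was 0.92 ± 0.15 (adjusted p = 7.2e-04).

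With each library's length slope as a covariate the genotype difference after LPS was called in 17 genes, 16 lower (7.85% of all genes in that fit) and 1 higher (4.02% of all genes), and the interaction in 25, 19 lower (8.4% of all genes) and 6 higher (8.0% of all genes). Calls thus rose among all genes too. All 10 and all 12 genes called without the covariate were among them. The genes added after LPS were ones that followed the slope: Mybl2 (-1.74, adjusted p = 0.0021), Kif11 (-1.66), Top2a (-1.22), Uhrf1 (-1.21) and Kif20a (-1.16) were lower, and Tpx2, a targeting factor of Aurka on the spindle, was higher (2.20, adjusted p = 2.2e-05). E2f7 was also called lower, on 20 against 1 counts, after passing the filter on low counts through its unstimulated libraries alone. Without the covariate Tpx2 was at 0.168, 1.34 and 2.55 CPM in wildtype and 0.955, 4.15 and 5.72 CPM in AhR-deficient BMDMs after LPS, a difference of 1.55 ± 0.69 (adjusted p = 0.17).

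Summed over each list, mitotic transcripts fell further than S phase transcripts with LPS. The 15 S phase genes summed to 1370 to 1650 CPM in unstimulated and 203 to 273 CPM in LPS-stimulated wildtype, and to 1360 to 2180 and 186 to 300 CPM in AhR-deficient BMDMs. Group medians were 6.4 and 7.75 times lower with LPS, and the sums of the genotypes overlapped in both states. Pcna held a large share of these sums after LPS, with means of 96.4 CPM in wildtype and 115 CPM in AhR-deficient BMDMs, and without it the sums after LPS were 115 to 162 and 96.7 to 113 CPM, with no overlap. The 21 mitosis genes summed to 1170 to 1420 and 75.3 to 101 CPM in wildtype and to 1280 to 1640 and 33.7 to 60.4 CPM in AhR-deficient BMDMs. Their medians were 16.1 and 33.3 times lower with LPS, and the genotypes overlapped without stimulation and not after LPS. Without Cenpa the sums after LPS were 39.1 to 63.8 and 24.6 to 56.6 CPM and overlapped over all runs, while within each of the 3 runs both wildtype libraries stayed above both AhR-deficient ones (59.6 to 61.2 against 51.7 to 56.6 CPM, 57.6 to 63.8 against 35.3 to 38.5 CPM and 39.1 to 46.0 against 24.6 to 37.0 CPM). Leaving out Pcna or Cenpa was chosen after seeing the data. By the mean log2(CPM + 0.5), which weights genes equally, both lists separated the genotypes after LPS, with 2.74 to 3.23 in wildtype and 2.41 to 2.67 in AhR-deficient BMDMs for S phase and 0.75 to 1.38 and 0.28 to 0.66 for mitosis. On this scale the S phase list exceeded the mitosis list by 1 to 1.25 in unstimulated wildtype and 0.80 to 1.33 in unstimulated AhR-deficient BMDMs, and by 1.57 to 2.09 and 2.00 to 2.14 after LPS, where the genotypes overlapped. The 0.5 added to CPM limits how far genes near 0 can fall on this scale. Plk1, for example, had a mean of 0.0502 CPM in AhR-deficient LPS libraries, so this overlap cannot show whether the lists fell apart further in 1 genotype.

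**Figure D5:**
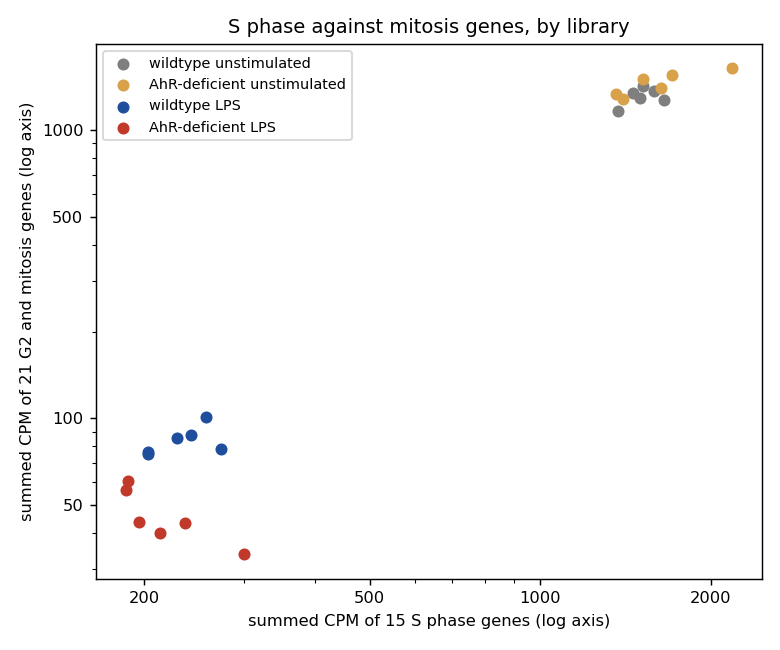
Summed CPM of the 15 S phase genes (horizontal, logarithmic) and of the 21 G2 and mitosis genes (vertical, logarithmic) in each library. The 12 unstimulated libraries lie together at the top right; after LPS wildtype (75.3 to 101) and AhR-deficient libraries (33.7 to 60.4) separate in the mitosis sum and overlap in the S phase sum; the S phase sum separates without Pcna, and the mitosis sum without Cenpa overlaps across runs but not within them.

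Set by promoter element, the 16 genes with a CHR element and a CCAAT box in a window had a median log2 fold change with LPS of -4.29 in wildtype and -5.13 in AhR-deficient BMDMs, and 5 of them were lower in AhR-deficient BMDMs after LPS, where 6.18% of all genes were lower. The 8 genes with an E2F site but not that combination had medians of -3.05 and -3.90, and none was called between genotypes after LPS, a count that so few genes would also give at the share of all genes. The 17 genes with a match to neither had medians of -2.08 and -1.75, and 3 of them, Birc5, Ccnb1 and Rrm2, were lower in AhR-deficient BMDMs after LPS. The remaining 11 members had no window. This grouping largely repeats the lists, since 13 of the 16 genes with the combination belong to G2 and mitosis. Of the 21 genes of that list, 9 were lower in AhR-deficient BMDMs after LPS. Among those 9, Birc5 and Ccnb1 had no CHR match in their windows, and Ccna2 and Cdc25c had no window. The part of the elements in these differences was not tested.

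Genes of the same processes outside the 52 went the same way. Of 36 other replication and S phase genes, 31 fell with LPS in wildtype (11.8% of all genes) and 31 in AhR-deficient BMDMs (15.7% of all genes), with median log2 fold changes of -2.55 and -3.23. Among the largest falls in wildtype were those of Mcm10, a helicase factor (-6.61), and the nuclease gene Exo1 (-5.55). Of 42 other G2 and mitosis genes, 38 and 40 fell and 1, Pttg1 (securin), rose in each genotype, by 1.53 and 2.27 on the log2 scale. After LPS 7 of the 36 and 14 of the 42 were lower in AhR-deficient BMDMs (6.18% of all genes), led by the polymerase gene Pole (-3.04) and Orc1 of the origin recognition complex (-3.03) among the first and by the ubiquitin-conjugating enzyme gene Ube2c (-2.92) and the kinetochore gene Nuf2 (-2.64) among the second. None was higher (2.17% of all genes), and without stimulation none of either list was called (4.48% of all genes), counts that lists of this size could also give at those shares.

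Among 24 other restraints on the cycle and p53 targets, 7 rose and 5 fell with LPS in wildtype (13.2% and 11.8% of all genes), and 8 rose and 5 fell in AhR-deficient BMDMs (15.1% and 15.7% of all genes). The largest rises were in the growth arrest genes Gadd45b (3.56 and 5.17 on the log2 scale) and Gadd45a (3.05 and 3.98) and in Cdkn2b, which codes for the CDK inhibitor p15 (3.13 and 4.32). After LPS 3 of the 24 were higher in AhR-deficient than in wildtype BMDMs (2.17% of all genes), the CDK inhibitor gene Cdkn1c by 1.77 (adjusted p = 0.022), Cdkn2b by 1.24 (adjusted p = 1.1e-04) and Gadd45a by 1.18 (adjusted p = 2.1e-05), and 1, the sestrin gene Sesn1, was lower (-1.49, adjusted p = 2.4e-06; 6.18% of all genes). Of 12 tested growth drivers 3 were called in wildtype, where 24.9% of all genes were called in either direction, and 6 in AhR-deficient BMDMs, where 30.8% of all were. Myc fell by 2.55 (adjusted p = 0.032) and 4.57 (adjusted p = 7.6e-04) with overlapping libraries, and the kinase gene Pim1 rose by 1.72 and 2.16. Between genotypes 1 growth driver was lower in AhR-deficient BMDMs without stimulation and 1 after LPS (3.57% and 6.18% of all genes), and none was higher (0.916% and 2.17%). Of the 24 restraints 1 was lower without stimulation and none higher. Lists of this size could also give these counts at those shares.

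Markers of other bone marrow cells also differed between genotypes. After LPS the 8 stem and progenitor markers summed to 20.1 to 74.3 CPM in wildtype and 5.83 to 19.1 CPM in AhR-deficient BMDMs, and 7 neutrophil markers to 722 to 8430 and 141 to 1020 CPM. The 7 dendritic cell markers summed to 566 to 2450 and 99.3 to 892 CPM, with Cd209a at 0 in wildtype and Cd207 at 0 in AhR-deficient libraries. Ccr7, which LPS raised in both genotypes, made up most of these sums, with 541 to 2410 and 96.4 to 884 CPM. The 6 mast cell and basophil markers summed to 7.08 to 30.7 and 1.98 to 6.51 CPM, 6 stromal, epithelial, endothelial and red cell markers to 15.3 to 55 and 3.46 to 16.9 CPM, and 6 lymphocyte markers stayed under 1 CPM in every library. In the stromal list Epcam (6.42 to 17.4 and 0 to 0.315 CPM) and Pecam1 (means of 13.7 and 5.41 CPM) made most of the difference, whereas the collagen genes Col1a1 (means of 0.371 and 0.458 CPM) and Col1a2 (1.27 and 1.89 CPM) were not lower in AhR-deficient BMDMs. Of the 8 alveolar macrophage markers 5 fell and 1 rose with LPS in wildtype (11.8% and 13.2% of all genes) and 4 fell and 1 rose in AhR-deficient BMDMs (15.7% and 15.1% of all genes), with Siglecf at means of 62.0 and 7.43 CPM in wildtype, and 2 were higher in AhR-deficient BMDMs in each state (0.916% of all genes without stimulation and 2.17% after LPS). Without stimulation the progenitor sums were 72.9 to 118 and 10.6 to 29.3 CPM and the neutrophil sums 1670 to 12700 and 256 to 803 CPM, with no overlap. Cd34 (means of 57.1 and 2.81 CPM) made most of the progenitor difference there, while Sox4 was alike (16.8 and 15.9 CPM). S100a8 (2260 and 278 CPM) and S100a9 (1470 and 149 CPM) made up most of the neutrophil sums. The part of other cells and of macrophage state in the cell cycle changes was not tested.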

How the data were processed

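RNA sequencing libraries (poly(A) enrichment, strand-specific) were analysed for 24 samples in 4 groups. The authors used GSNAP for alignment to mm10 and made a count per gene of Ensembl release 98 with featureCounts 2.0.1 from uniquely assigned fragments (reverse-stranded, per the file headers), so fragments shared with near-identical copies or overlapping genes are missing. The submitters' processing notes also name bcl2fastq 2.20.0 and the build hg38 without a role. The deposited values are these raw counts, without normalization. The table's 92 spike-in sequences, with 1 count in all, were left out.

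All 24 libraries entered 1 model of the 4 groups in edgeR 4.0.16 (R 4.3.3). TMM factors lay between 0.704 and 1.3, filterByExpr left 16593 genes, and testing was by the quasi-likelihood F-test with robust settings. Calls needed a Benjamini-Hochberg adjusted p of 0.05 or less and a log2 fold change of 1 or more in either direction, except in the interaction, which had no minimum. SE is the log2 fold change divided by the root of F. CPM values use TMM-scaled library sizes, and FPKM values divide them by the merged exon length. The biological coefficient of variation was 49.1%, so for abundant genes the spread between libraries, not depth, set the precision. A group without counts allows up to 3 counts over its libraries. The floor covers counting error only. Values by run are differences of mean log2(CPM + 0.5).

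The members, the other pathway lists, the 8 marker lists and the tests were chosen with earlier results of these data known. Any member could be named, and of other pathway lists up to 3 genes per direction with the largest called changes. The fit was tested on simulated counts with known changes. Alternatives were scaling by DESeq2 size factors or by totals, the tests of DESeq2 1.42.0 and limma-voom (limma 3.58.1), other filters, only the 12 libraries compared, no minimum fold change, run or length slope as a covariate, both libraries without Y-linked counts left out, and each library left out. Leaving out libraries 19 and 33 together was added after seeing the data. Tables and plots used Python 3.11.15 with pandas 2.3.3 and matplotlib 3.10.9.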

Additional observations from a re-analysis of the deposited data

Results flagged for a closer look

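Of 208 combinations of gene and group, 15 held a library farther from the other 5 than Dixon's 95% critical value allows, where chance gives about 1 in 20. Library 33 of unstimulated wildtype accounted for 8. It was the lowest of its group in Ccnd2 (58.5 CPM), Mcm2 (34.2 CPM), Rrm1 (161 CPM), Bub1 (41.5 CPM), Bub1b (18.8 CPM) and Kif11 (4.22 CPM) and the highest in Ccna2 (259 CPM) and Ccnb1 (71.3 CPM). Library 19 of unstimulated AhR-deficient BMDMs accounted for 4, as the lowest in Mcm3 (49.0 CPM), Mcm4 (38.6 CPM), Bub1 (43.8 CPM) and Kif11 (7.84 CPM). These libraries had the lowest length slopes of their groups, and the part of the slope in these values was not tested. Library 17 of unstimulated wildtype was the highest in Mcm5 (257 CPM). In AhR-deficient LPS libraries, library 31 held the only count of E2f7 (0.0197 CPM) and library 32 all counts of Cenpe (0.0721 CPM).

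The LPS effect differed between genotypes, by the interaction term, in 12 genes. On the log2 scale the effect was higher in AhR-deficient than in wildtype BMDMs by 2.65 in Ccnd1 and 0.92 in Ccnd3. The interaction was -3.73 in Plk1, -3.36 in Ccnb2, -3.29 in Cdc25c, -2.59 in Cenpa, -2.28 in Ccnb1, -2.16 in Cdc20, -2.03 in Ccna2, -1.73 in Rrm2, -1.56 in Cdc25b and -0.82 in Mcm7. For Cdc25c it rested on 81 counts in wildtype against 7 in AhR-deficient libraries after LPS.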

How the results depend on the processing

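The number of members called stayed within 1.5 times under every alternative except for 3 values: 2 without a minimum fold change for genotype without stimulation (from 1), and, once the length slope entered as covariate, 17 for genotype after LPS (from 10) and 25 for the interaction (from 12). Leaving out each library in turn gave 46 to 47 members for LPS in wildtype, 44 to 47 for LPS in AhR-deficient BMDMs, 1 to 1 for genotype without stimulation, 10 to 13 for genotype after LPS and 11 to 13 for the interaction. No called member changed direction. Called under every alternative that tested them were 46 of 47, 44 of 47, 1 of 1, 8 of 10 and 10 of 12 members of these comparisons. The exceptions were Cdk4 in both LPS comparisons, Pcna and Cdk6 for LPS in AhR-deficient BMDMs, Birc5 and Ccnb1 for genotype after LPS, and Mcm7 and Cdc25c for the interaction. Pcna lost its call without library 19 (-0.99), Cdk4 without library 33 in wildtype (-0.93) and without library 19 (-0.90), 31 (-0.99), 32 (-1.0) or 35 (-0.96) in AhR-deficient BMDMs, Mcm7 with limma-voom (-0.78) and without a filter on low counts (-0.82, the same size) and Cdc25c with limma-voom (-2.69). The cause was not tested. Without libraries 19 and 33, an alternative chosen after seeing the data, 46, 44, 1, 12 and 12 members were called. No paired analysis was run, because the labels give no replicate numbers shared between groups. Without libraries 34 and 38, which lack Y-linked counts, 47, 47, 1, 10 and 13 members were called. After LPS several mitotic genes had under 1 CPM, and differences there rest on few counts.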
